A study of Homo sapiens with 117 samples.

Results

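AsiSI is a restriction enzyme that cuts DNA at the octamer GCGATCGC, and the sites described here are its recognition sites at the promoters of protein-coding genes. A site was included when the centre of the octamer lay within 1 kb of the annotated start of a protein-coding gene in GENCODE release 44, on chromosomes 1 to 22 and X of GRCh38. This rule took 186 of the 1220 AsiSI sites. The other 1034 sites lay farther from any such start. The rule used no ChIP-seq value.

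The samples are CTCF ChIP-seq of DIvA cells, which derive from the U2OS osteosarcoma line and carry AsiSI fused to an estrogen receptor domain, and which the study used to follow CTCF around DNA double-strand breaks (DSB). In these cells 4-hydroxytamoxifen (4-OHT) moves the enzyme into the nucleus, where it can cut. Cells expressed IDH1 WT or IDH1 R132H, the cancer-associated form of isocitrate dehydrogenase 1, and were left untreated (−DSB) or given 300 nM 4-OHT for 4 h (+DSB). Further IDH1 R132H cells, also with and without 4-OHT, overexpressed the catalytic domain of the 5-methylcytosine dioxygenase TET1 (TET1 CD) or a mutant form of that domain (TET1 dCD). Of the 24 peak lists analysed, IDH1 WT had 3 −DSB and 4 +DSB, IDH1 R132H had 4 for each treatment, TET1 CD had 2 for each, and TET1 dCD had 3 −DSB and 2 +DSB. All groups carry the AsiSI fusion, and all TET1 groups carry IDH1 R132H. Cutting was not measured in these lists, so a member site is a sequence that AsiSI can recognise and not a break that was seen.

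CTCF is a zinc finger protein that binds a long DNA motif, holds the loop extrusion machine cohesin in place and marks the borders of chromatin domains. Part of its binding sites are blocked by methylation of a CpG inside the motif. Promoters of active genes are mostly CpG-rich, nucleosome-poor and unmethylated, and breaks in transcribed genes are known for local silencing and for repair by homologous recombination.

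Pairs of lists of a group that did not differ beyond sampling noise (chi-square test at 0.05) while other pairs of the group did, or that lay below that noise where the group had 1 pair, were counted as 1 sample by their mean. This left 18 samples, with 2 and 3 of IDH1 WT (−DSB and +DSB), 3 and 3 of IDH1 R132H, 2 and 1 of TET1 CD, and 2 and 2 of TET1 dCD. The source labels do not say which samples came from separate cultures, so p-values measure the spread between these samples, which may be technical. The study's own documents give the number of biological replicates of this ChIP-seq inconsistently, and part of the lists may come from the same culture. The read depth behind a list, in reads times 1e6 and estimated from its fold values, was 22.7 to 35.1 for IDH1 WT −DSB, 70.9 to 80.0 for IDH1 WT +DSB, 44.3 to 63.2 for IDH1 R132H −DSB, 23.7 to 34.6 for IDH1 R132H +DSB and 26.6 to 41.7 for the TET1 groups. The shortest peak, taken as the fragment length, was 124 to 128 bp, 143 to 191 bp, 144 to 150 bp and 121 to 127 bp in the IDH1 groups in the same order. Neither range overlapped between the genotypes within a treatment, so genotype, depth and fragment length cannot be told apart. Nor did they overlap between the treatments within IDH1 WT or IDH1 R132H, so treatment, depth and fragment length cannot be told apart either.

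The run names written inside the lists go against the labels for part of the samples. The lists labelled IDH1 WT −DSB carry run names of R132H cells without 4-OHT, and the lists labelled IDH1 R132H −DSB carry run names of wild-type cells without 4-OHT. Among the TET1 lists, the first 2 replicates of dCD −DSB have run names of TET1 CD with 4-OHT. The labels were followed here, and results that change when groups follow the run names are also printed that way.

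The sequences below show the sites on which the results turn: the 2 sites nearest to the primers of the study's 4C-seq viewpoints (KYAT3/RBMXL1 and ASXL1), 3 with the strongest CTCF summits, the site with the widest gap between genotypes in the presence of a summit (PITPNA), and 6 whose CTCF peak differed between groups. Each is the forward strand of GRCh38, 30 bases long, with the AsiSI octamer in capitals.
KYAT3/RBMXL1, chr1:88992902-88992931: tggggtccgccGCGATCGCggaatggatgg
ASXL1, chr20:32358498-32358527: cgcattccttaGCGATCGCggggcagccgc
CYB561D1, chr1:109494066-109494095: ccaccgcctccGCGATCGCaaacccggaag
AHCYL1, chr1:109984941-109984970: caggagggtggGCGATCGCgtgtcggaggg
FAM171A2, chr17:44363555-44363584: ggcgcaggcccGCGATCGCggcccctcccg
PITPNA, chr17:1563316-1563345: gagccgagatcGCGATCGCgccattgcact
LRFN2, chr6:40588083-40588112: tgggggctgggGCGATCGCgcccacccagt
PSMD3, chr17:39981208-39981237: gggaacgtgccGCGATCGCgggtgacagcg
USP22, chr17:21042976-21043005: gatggggctgcGCGATCGCcgaggggaggc
FDX1, chr11:110430313-110430342: gccgtgcgggcGCGATCGCcggcgcgggcc
DSC2, chr18:31101848-31101877: ctgcaccctagGCGATCGCccccttccccg
PHLDA1, chr12:76031875-76031904: ctctacccaggGCGATCGCccaaggagccc

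The wider setting of such a site is shown by the PHLDA1 promoter, the RefSeq window of 250 bases upstream of the gene start (GRCh38.p14, chr12:76031777-76032026, reverse strand, read in the direction of transcription). The AsiSI octamer, in capitals, spans bases 134 to 141 of the window, and the window holds 26 CpG dinucleotides. The median CTCF summit of this member lay 158 bp downstream of the start, outside the window.
PHLDA1: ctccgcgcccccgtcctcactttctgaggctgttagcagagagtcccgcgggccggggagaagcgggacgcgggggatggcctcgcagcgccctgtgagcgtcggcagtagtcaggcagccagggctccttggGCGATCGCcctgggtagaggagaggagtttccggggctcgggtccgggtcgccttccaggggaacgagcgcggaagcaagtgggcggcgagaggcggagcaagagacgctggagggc

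The 186 sites lay at 200 protein-coding genes, and 17 of them had the starts of 2 genes within 1 kb. The octamer was downstream of the nearest start at 124 sites and upstream at 62, at a median distance of 334.5 bp, and 62 sites were within 200 bp of the start. By annotation, 63 octamers lay in introns, 52 in untranslated exons, 48 outside protein-coding genes, 16 in coding exons and 7 in other exons. At the edge of the rule, the LMNB2 and OTUD5 sites were just inside at 961.5 bp, and the nearest sites outside were at 1002.5 and 1005.5 bp. Chromosome 1 held 17 sites, and chromosomes 6 and 17 held 15 each. Few sites shared their surroundings, as only 5 lay within 2 kb of another member.

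The sequence around the promoter sites was richer in GC and CpG than around the other AsiSI sites. In a window 1 kb wide and centred on the octamer, the GC content was 63.0% ± 8.63 (SD over 186 sites), compared to 48.8% ± 9.57 at the 1034 other sites. This window held 78.4 ± 30.5 CpG dinucleotides compared to 28.8 ± 28.5. As a second comparison, 3 control octamers with the letters of the AsiSI site in another order (GCGTACGC, CGCATGCG and CGGATCCG) were taken through the same rule, which gave 1158 of 5349 at promoters. These promoter control octamers had a GC content of 62.4% ± 7.45 and 77.6 ± 27.0 CpG dinucleotides, close to the promoter AsiSI sites. An exact match to the core CTCF motif, on either strand and with no mismatch allowed, was found within 1 kb of 6 promoter AsiSI sites (3.23%), 9 of the other AsiSI sites (0.870%) and 16 promoter control octamers (1.38%). In the RefSeq promoter windows of 300 bases, which were matched for 156 of the 200 gene symbols, 3 of 221 windows held the core motif (1.36%) compared to 165 of all 35116 windows (0.470%). The AsiSI octamer itself was in 40 of the 221 windows (18.1%), and in 73 of all windows (0.208%), which include the 221. A higher share of the octamer follows from the rule, which chose these genes by an octamer near their start.

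CTCF summits were concentrated at the promoter AsiSI sites. Over the 18 samples, a mean of 61.5% ± 8.54 (SD) of the 186 sites had a summit within 1 kb, with a lowest value of 46.8%, a median of 62.4% and a highest of 78.2%. At the other AsiSI sites the mean was 19.2% ± 3.95. In the 20000 strongest peaks per list the values were 15.2% ± 2.32 and 2.87% ± 0.263. Among peaks whose −log10 q was 10 or more they were 29.7% ± 13.2 and 5.29% ± 1.85. The lists also hold weak peaks, as 71.1% to 96.2% of the peaks of a list had a q under 0.05. In every sample the promoter sites were above the others.

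By distance, the density of summits fell from 0.427 ± 0.0493 per kb and site within 1 kb to 0.144 ± 0.0350 at 1 to 5 kb, 0.103 ± 0.0243 at 5 to 10 kb and 0.0940 ± 0.0262 at 10 to 50 kb. At the other AsiSI sites it was 0.123 ± 0.0303, 0.105 ± 0.0289, 0.0996 ± 0.0279 and 0.103 ± 0.0291 in the same bins. The difference within a sample was 0.304 per kb within 1 kb and 0.0385 at 1 to 5 kb, each with p = 7.63e-06, the smallest that the exact two-sided sign-flip permutation test over 18 samples can give. At 5 to 10 kb the difference was 0.00308 per kb (p = 0.0953, same exact test). At 10 to 50 kb the promoter sites were lower by 0.00920 per kb (difference -0.00920, p = 7.63e-06, same exact test). Among the 20000 strongest peaks the promoter sites were higher by 0.000194 per kb at 10 to 50 kb (p = 0.000427) and by 0.00640 at 5 to 10 kb (p = 7.63e-06, both by the same exact test). All samples read the same sites, so the p-values of this paragraph measure the spread between samples and not between sites. The plot of summit density by distance bin shows each sample.

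**Figure D1:**
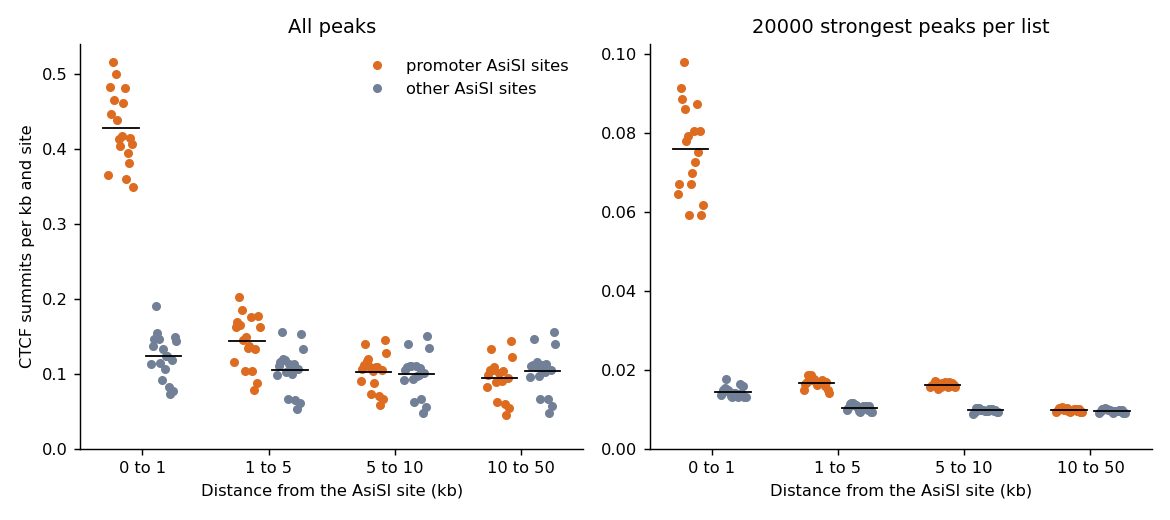
CTCF summits per kb and site (y axis) in 4 bins of distance from the AsiSI octamer (x axis, kb), for all peaks (left) and the 20000 strongest peaks of each list (right). Points are the 18 samples, horizontal lines their means; the promoter sites stand at 0.427 per kb within 1 kb compared to 0.123 at the other AsiSI sites, and the 2 sets lie close together beyond 10 kb.

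The control octamers at promoters showed a like density. For all peaks the promoter AsiSI sites had fewer sites with a summit within 1 kb, by 3.50 percentage points within a sample (p = 0.000267, exact sign-flip permutation test, 18 samples). The direction turned with the strength of the peaks, since among the 20000 strongest peaks the promoter AsiSI sites were higher by 3.97 points (p = 7.63e-06, same exact test) and by 4.32 points among peaks whose −log10 q was 10 or more (p = 3.05e-05, same exact test). These p-values measure the spread between samples, which all read the same sites, and not the spread between sites. Around the octamer, the density in steps of 200 bp peaked at 0.577 per kb for AsiSI and at 0.694 for the control octamers. Around the gene start the peaks were 0.747 and 0.755.

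**Figure D2:**
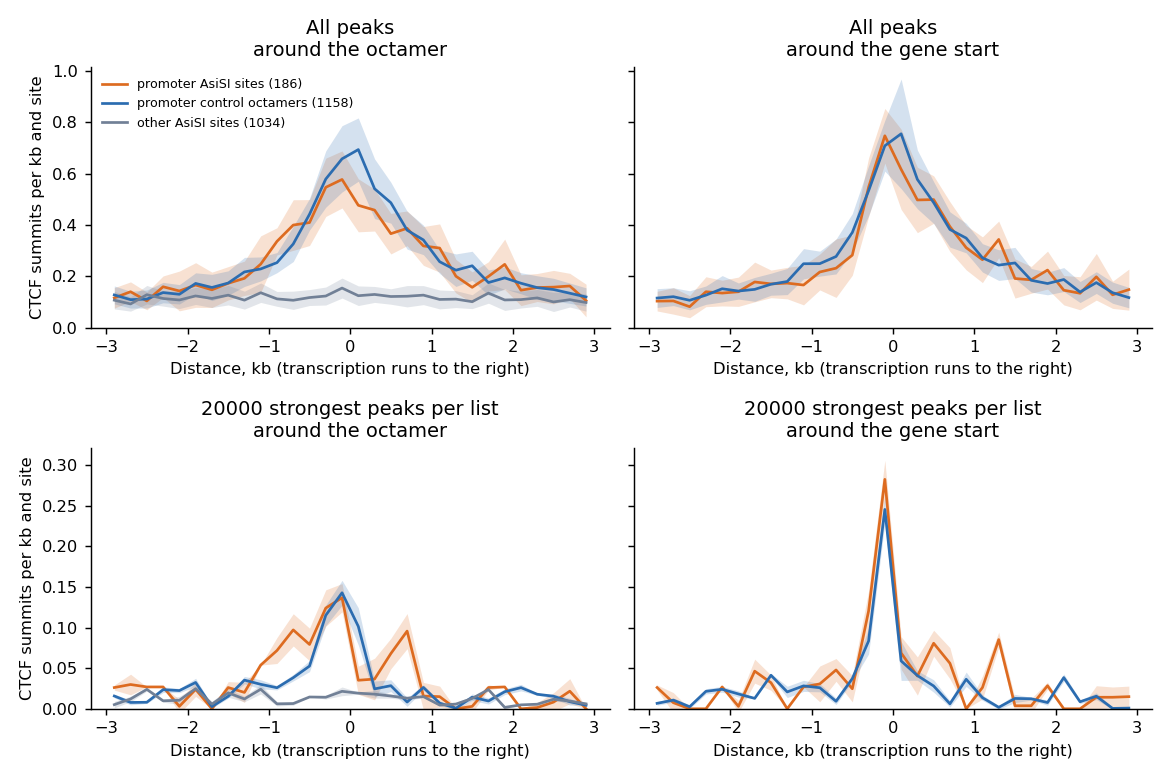
CTCF summits per kb and site (y axis) in steps of 200 bp up to 3 kb (x axis) around the octamer (left) and the gene start (right), for all peaks (top) and the 20000 strongest peaks of each list (bottom). Lines are means over 18 samples and bands 1 SD; the density peaks near the gene start for promoter AsiSI sites and promoter control octamers alike, at 0.282 and 0.245 per kb in the 200 bp upstream of it among the strongest peaks.

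The strongest summit of a member was more often near the gene start than near the octamer. Among the 20000 strongest peaks, which gave a summit at 22 to 36.5 members per sample, 49.7% ± 3.97 (SD, 18 samples) of these members' strongest summits lay within 400 bp upstream of the start, and 66.2% ± 3.08 were nearer to the start than to the AsiSI octamer. For all peaks these values were 32.1% ± 3.25 and 53.6% ± 3.46. The median distance of the strongest summit was 252 ± 32.2 bp from the start and 461 ± 25.7 bp from the octamer among the strongest peaks. Of these summits 8.39% ± 1.23 had the core CTCF motif within 50 bp, compared to 23.6% ± 0.408 of all other summits among these peaks. The share rests on 2 to 3 summits with a motif among 22 to 36.5 per sample.

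Sites differed widely in how often a summit was found. Of the 186 sites, 14 had no summit within 1 kb in any of the 24 lists, 48 had one in 1 to 11 lists, 80 in 12 to 23 lists and 44 in every list. By the strongest 20000 alone, 146 sites had none in any list and 21 had one in every list. The share of sites with a summit was 54.2% ± 9.61 in the 62 sites with the fewest CpG dinucleotides (11 to 69 in the window), 62.3% ± 9.85 in the 62 in the middle and 68.1% ± 8.11 in the 62 with the most (92 to 156), and the last were above the first in 18 of 18 samples. The 6 sites with a core CTCF motif stood at 77.8% ± 8.08 compared to 61.0% ± 8.64 for the 180 without, and at 56.0% ± 7.99 compared to 13.8% ± 2.24 among the strongest peaks. Sites downstream of the start (65.8% ± 8.85) were above those upstream (52.9% ± 8.36) in 18 of 18 samples. These shares describe the sites of 1 genome read in all samples, and no test across sites was made.

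The 6 sites with the best median rank of their strongest summit, rank 1 being the strongest peak of a list, were all found among the 20000 strongest peaks of all 24 lists. CYB561D1, which encodes a transmembrane protein of the cytochrome b561 family, had a median rank of 304 (127 to 855), with the summit 56 bp upstream of the start and a median fold of 74.9 over background. AHCYL1, a partner of the inositol trisphosphate receptor, followed at rank 582.5 and was the one of the 6 with a core CTCF motif within 1 kb. FAM171A2 was at rank 759.5 with its summit 26 bp upstream of the start. MED15/KLHL22, where a Mediator subunit and an adaptor of the CUL3 ubiquitin ligase have neighbouring starts, was at rank 762.5. RPN1, a subunit of the oligosaccharyltransferase, was at rank 2028, and SNRPE, a core protein of the spliceosomal snRNPs, at rank 2291.

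The sites at the 4C-seq viewpoints carried weak CTCF peaks. Each viewpoint primer had 1 exact match in GRCh38, from which the nearest AsiSI site was 1887 and 2341 bp away at KYAT3/RBMXL1 and 1365 and 807 bp away at ASXL1. The positions given for the breaks in the CTCF assays name no genome build and hold no AsiSI octamer in GRCh38, so which sites they mean was not settled. At KYAT3/RBMXL1, the starts of a kynurenine aminotransferase gene and an RNA-binding protein gene, the octamer lay in untranslated exons of both genes and a summit was found in 24 of 24 lists at a median rank of 58530 and a median fold of 4.43. At ASXL1, a chromatin regulator that acts with a Polycomb deubiquitinase, a summit was found in 22 lists at a median rank of 79336 and a median fold of 3.80. Neither site had a summit among the 20000 strongest peaks of any list.

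Of all 19970 protein-coding genes 200 had a member site (1.00%), and the shares of genes of DNA repair, chromatin and the cell cycle are given beside that. Of 136 DNA damage and repair genes, 2 had a member site. RNF8, the ubiquitin ligase that acts early at breaks, had a summit within 1 kb in 18 of 24 lists, and BABAM1, a subunit of the BRCA1-A complex, in 3. Of 82 cell cycle and cancer genes, CCNB1, the mitotic cyclin B1, and PIK3CA, the catalytic subunit of a phosphoinositide 3-kinase, each had one in 19 lists. ASXL1 was the one of 81 chromatin modifier genes. IDH3G, a subunit of the NAD-dependent isocitrate dehydrogenase, was the one of 35 genes of DNA methylation, TET and IDH, with a summit in 16 lists, and RPL22, a ribosomal protein, the one of 65 genes of translation, with a summit in 2. None of 34 genes for CTCF, cohesin and chromosome structure had a member site. No site of these lists had a summit among the 20000 strongest peaks or a CTCF site that could be tested for strength. Over all 186 members, 146 had no summit among these peaks.

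To ask whether presence of CTCF at these promoters differed with IDH1 R132H or with breaks, the share of the 186 sites with a summit within 1 kb was compared between groups. It was 52.7% and 64.0% in the 2 samples of IDH1 WT −DSB, and 71.5%, 75.3% and 78.2% in IDH1 WT +DSB. In IDH1 R132H it was 60.5%, 62.4% and 69.4% −DSB, and 55.4%, 56.5% and 62.4% +DSB. IDH1 WT +DSB was the one IDH1 group whose samples lay above all the others. In the same groups and order the means of the promoter control octamers were 62.3%, 80.9%, 65.4% and 59.5%, and those of the other AsiSI sites were 19.2%, 24.2%, 17.9% and 19.2%.

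The difference between the genotypes over both treatments was -5.60 percentage points (R132H minus WT, p = 0.28, exact permutation test within treatments, smallest possible p = 0.005). With breaks the share changed by 16.7 points in IDH1 WT, from 58.3% ± 7.98 (n = 2) to 75.0% ± 3.37 (n = 3), with p = 0.1 in an exact permutation test that cannot go lower. With every list its own sample it was 15.6 points (p = 0.0286), and 15.8 points with the replicate number as a block as well (p = 0.25, both exact permutation tests). In IDH1 R132H it changed by -6.00 points, from 64.1% ± 4.67 to 58.1% ± 3.76 (n = 3 each, p = 0.3, exact permutation test, smallest possible p = 0.1). R132H minus WT in this change came to -22.7 points (p = 0.025, exact permutation of the genotype within treatments). It did not stay below 0.05 without IDH1 WT −DSB replicate 2 (-17.0 points, p = 0.0625) or without IDH1 R132H −DSB replicate 1 (-20.0 points, p = 0.05, both exact permutation tests), nor with the replicate number as a block and every list its own sample (-17.6 points, p = 0.0625, exact permutation test). With the groups of the run names it was -11.2 points (p = 0.28), and the genotype difference was -11.3 points (p = 0.025, both exact permutation tests).

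The promoter control octamers moved in the same way. Their genotype difference was -9.14 points (p = 0.165) and their difference in the change with breaks was -24.5 points (p = 0.05, both exact permutation tests within treatments). Promoter AsiSI sites minus promoter control octamers, taken within each sample, differed between the genotypes by 3.54 points (p = 0.095) and in the change with breaks by 1.85 points (p = 0.645, both exact permutation tests). Among the 20000 strongest peaks the last value was -3.92 points (p = 0.005, the smallest that the exact permutation test can give). Depth was also highest in IDH1 WT +DSB, and its part in these differences was not tested.

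**Figure D3:**
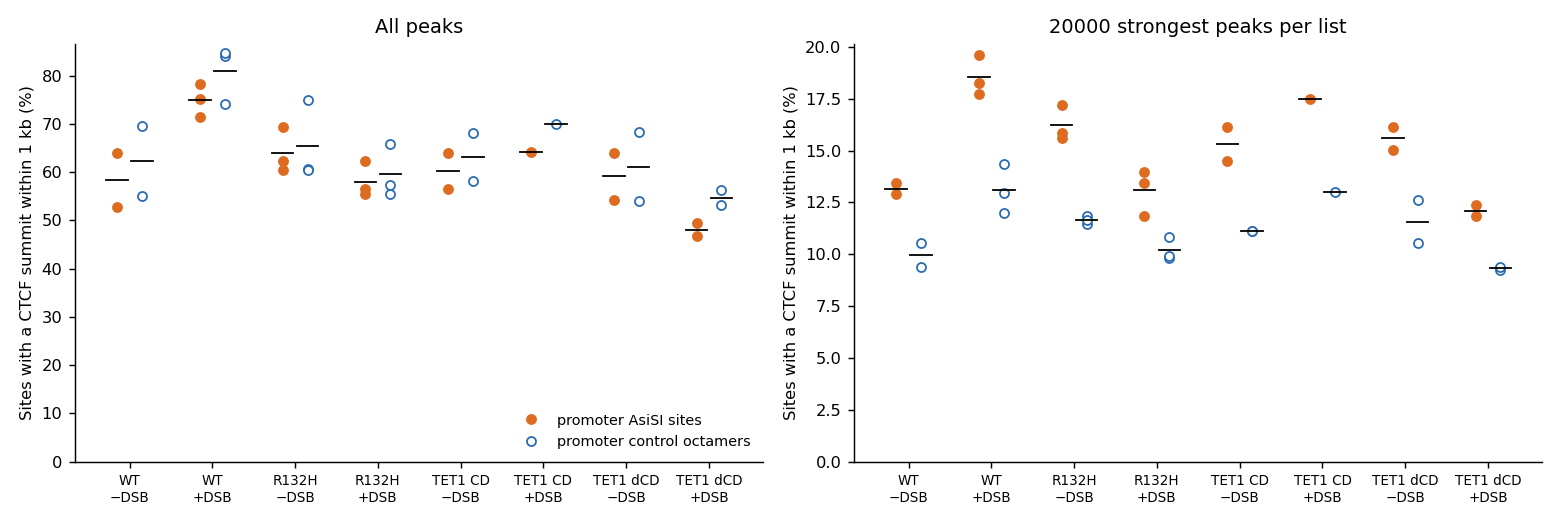
Percent of promoter AsiSI sites (filled) and promoter control octamers (open) with a CTCF summit within 1 kb (y axis) in each sample of the 8 labelled groups (x axis), for all peaks (left) and the 20000 strongest peaks of each list (right). Horizontal lines are group means; both kinds of octamer are highest in WT +DSB (75.0% and 80.9% for all peaks) and lowest in TET1 dCD +DSB (48.1% and 54.7%).

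When only the 20000 strongest peaks were counted, 12.9% and 13.4% of the members had a summit in IDH1 WT −DSB, and 17.7%, 18.3% and 19.6% in IDH1 WT +DSB. The values were 15.6%, 15.9% and 17.2% in IDH1 R132H −DSB, and 11.8%, 13.4% and 13.98% in IDH1 R132H +DSB. The group means went from 13.2% to 18.5% in IDH1 WT and from 16.2% to 13.1% in IDH1 R132H, and the samples with and without breaks did not overlap within either genotype. With the groups of the run names the samples of IDH1 R132H overlapped, at 12.9% and 13.4% −DSB and 11.8%, 13.4% and 13.98% +DSB.

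Over the wider window, each member had a mean of 10.2 ± 1.44 summits within 50 kb in IDH1 WT −DSB, 12.8 ± 1.69 in IDH1 WT +DSB, 10.0 ± 2.52 in IDH1 R132H −DSB and 10.5 ± 0.502 in IDH1 R132H +DSB. The genotype difference was -1.21 summits per site (p = 0.29) and the difference in the change with breaks was -2.09 (p = 0.365, both exact permutation tests). Among the 20000 strongest peaks the latter was -0.216 (p = 0.005), and it was -2.26 among peaks whose −log10 q was 10 or more (p = 0.005, both exact permutation tests). In the 200 bp on either side of the octamer the density was 0.514 ± 0.0998 per kb in IDH1 WT −DSB, 0.645 ± 0.0356 in IDH1 WT +DSB, 0.551 ± 0.101 in IDH1 R132H −DSB and 0.486 ± 0.0303 in IDH1 R132H +DSB.

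The TET1 groups asked whether the active TET1 domain changes CTCF in IDH1 R132H cells. The share of members with a summit within 1 kb was 56.5% and 64.0% in TET1 CD −DSB, 64.2% in the 1 sample of TET1 CD +DSB, 54.3% and 64.0% in TET1 dCD −DSB, and 46.8% and 49.5% in TET1 dCD +DSB. The groups overlapped without breaks and stood apart with them. TET1 CD minus dCD was 8.60 percentage points (p = 0.222, exact permutation test within treatments, smallest possible p = 0.0556). Within 50 kb the difference was -3.77 summits per site (p = 0.333, same exact test), and it was 0.0827 among the 20000 strongest peaks. Fragment length was 194 bp in TET1 CD +DSB and 118 to 119 bp in TET1 dCD +DSB. The lists of TET1 CD +DSB held 111399 to 115259 peaks, and those of TET1 dCD +DSB 447411 to 502930. The part of fragment length and of peak number was not tested.

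No single AsiSI site was called different between the genotypes in the presence of a summit within 1 kb. Fisher's exact test pooled both treatments, on 5 IDH1 WT and 6 IDH1 R132H samples. Adjusted over all 1220 sites, it gave 0 members and 0% of all sites. The smallest p that 5 and 6 samples allow is 0.00216, so a single site could not pass the adjustment. At an unadjusted p under 0.05 it gave 1 member and 3 sites in all. The member was PITPNA, which encodes a phosphatidylinositol transfer protein, with a summit in 4 of 5 IDH1 WT samples and in 0 of 6 IDH1 R132H samples (Fisher's exact p = 0.0152, adjusted p = 1). These 6 samples leave out the TET1 groups, in which PITPNA had a summit in 1 of 2 lists of TET1 CD +DSB and 1 of 3 of TET1 dCD −DSB. It had none in TET1 CD −DSB or TET1 dCD +DSB. Within IDH1 WT, PITPNA had a summit in 1 of 3 lists −DSB and in 3 of 4 lists +DSB. MORN1/RER1 and VPS33B, a vesicle sorting gene, came next with a summit in 4 of 5 and 1 of 6 samples each (Fisher's exact p = 0.0801). Within IDH1 WT they had a summit in 2 of 3 and 1 of 3 lists −DSB, and in 4 of 4 lists each +DSB. All 3 peaks were weak, with median folds of 4.22, 3.57 and 2.94 over background. With the groups of the run names, 6 IDH1 WT and 5 IDH1 R132H samples, Fisher's exact test again called 0 members and 0% of all sites. At an unadjusted p under 0.05 it then gave 7 members and 24 sites in all.

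The strength of CTCF peaks was compared where a CTCF site, built from the strongest peaks of any list, had a summit in every list. Of 28816 CTCF sites 24715 met this, and 30 of the 42 within 1 kb of a member did, each at a different member. A CTCF site without a summit in some list, such as one lost in a group, was not tested. The calls therefore describe changes in strength and not the loss of a peak. The values are log2 fold over background after quantile normalization, tested by limma over all 24715 sites with Benjamini-Hochberg adjustment at 0.05. A call compares sites within the list, and a change shared by all sites is taken out.

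Without breaks, 11 of the 30 members were called between IDH1 R132H and IDH1 WT, 9 higher and 2 lower in IDH1 R132H, beside 33.7% of all sites (17.3% higher and 16.4% lower). With breaks 16 were called, 1 higher and 15 lower in IDH1 R132H, beside 52.4% of all sites (28.4% higher and 24.1% lower). With median scaling in place of quantile normalization 9 were higher and 9 lower without breaks, beside 21.4% and 25.6% of all sites, and 13 were higher and 11 lower with breaks, beside 44.1% and 25.8%. The median of all sites was -0.04 without breaks and 0.03 with breaks after quantile normalization, and -0.12 and 0.20 after median scaling. Of the members called after quantile normalization, 10 of 11 without breaks and 11 of 16 with breaks kept their call and direction, and 0 and 2 changed sign. The 2 lower members without breaks were AHCYL1 (-0.17) and EIF3G (-0.23), a translation initiation factor subunit, and the 1 higher with breaks was ZNF3 (0.34), a zinc finger gene. Without breaks the count of 11 fell to 5 without IDH1 WT −DSB replicate 2 and to 7 without IDH1 WT −DSB replicate 3, IDH1 R132H −DSB replicate 1 or IDH1 R132H −DSB replicate 2. With breaks the count of 16 fell to 10 without IDH1 R132H +DSB replicate 1.

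In IDH1 WT, 13 of the 30 members were called with breaks against without, 12 higher and 1 lower, beside 47.1% of all sites (21.6% higher and 25.5% lower). In IDH1 R132H 11 were called, 1 higher and 10 lower, beside 38.4% of all sites (19.3% higher and 19.1% lower). The difference between the genotypes in the change was called at 16, 2 with a higher change in IDH1 R132H and 14 with a lower one, beside 61% of all sites (33.2% higher and 27.7% lower). With every list its own sample and the replicate number as a block, 21 members were called in IDH1 WT beside 59.6% of all sites (limma), and 20 without the block. With median scaling 12 were higher and 12 lower in IDH1 WT, beside 24.2% and 40.3% of all sites. The split was 9 and 9 in IDH1 R132H, beside 32.7% and 22.9%, and 12 and 12 for the difference, beside 45.4% and 29%. Of the members called after quantile normalization, 11 of 13, 9 of 11 and 12 of 16 kept their call and direction in these 3 comparisons, and 2, 1 and 4 changed sign. The 1 lower member in IDH1 WT was CYB561D1 (-0.15), the 1 higher in IDH1 R132H was ZNF3 (0.36), and the 2 higher for the difference were CYB561D1 (0.25) and ZNF3 (0.68). Without IDH1 WT −DSB replicate 2 the count of 13 was 8, and without IDH1 R132H −DSB replicate 1 or IDH1 R132H +DSB replicate 1 the count of 11 was 6.

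With the groups of the run names these 3 comparisons lost their calls. IDH1 WT then had 0 called members beside 0.0243% of all sites, 6 in number, and IDH1 R132H and the difference had 0 members beside 0% of all sites (limma, with 3441, 533 and 1733 sites at an unadjusted p under 0.05). The comparison without breaks kept 11 called members with the direction turned, 2 higher and 9 lower in IDH1 R132H, beside 33.1% of all sites (16.1% higher and 17% lower). That with breaks kept 16 called members, 1 higher and 15 lower, beside 52% (28.1% higher and 23.9% lower).

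None of the genes with the largest changes is in the gene lists used here. LRFN2, a synaptic adhesion protein, had a CTCF peak 318 bp upstream of its start at a normalized log2 fold of 3.51 and 4.01 in IDH1 WT −DSB, and of 5.39, 5.53 and 5.59 in IDH1 WT +DSB. In IDH1 R132H it was 5.39, 5.47 and 5.06 −DSB, and 3.39, 3.65 and 4.28 +DSB. The 2 groups with wild-type run names lay above the 2 with R132H run names with no overlap. They also had greater depth (44.3 to 80.0, compared to 22.7 to 35.1) and longer fragments (143 to 191 bp, compared to 121 to 128 bp). The part of run name, depth and fragment length was not tested. IDH1 R132H minus IDH1 WT was 1.54 ± 0.289 (SE) without breaks (limma, adjusted p = 0.000636) and -1.73 ± 0.259 with breaks (limma, adjusted p = 3.23e-05). The difference in the change was -3.27 ± 0.388 (limma, adjusted p = 1.08e-06), and -0.19 with the run names (limma, adjusted p = 0.926).

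PSMD3, a subunit of the proteasome cap, had its peak 190 bp upstream of the start. It stood at 3.92 and 4.21 in IDH1 WT −DSB, 5.79, 5.31 and 5.87 in IDH1 WT +DSB, 5.39, 5.24 and 5.15 in IDH1 R132H −DSB, and 3.98, 4.03 and 4.03 in IDH1 R132H +DSB. The groups separated as at LRFN2. IDH1 R132H minus IDH1 WT was 1.20 ± 0.186 without breaks (limma, adjusted p = 0.000131) and -1.65 ± 0.166 with breaks (limma, adjusted p = 8.96e-07). The difference in the change was -2.84 ± 0.250 (limma, adjusted p = 4.05e-08), and -0.45 with the run names (limma, adjusted p = 0.726).

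USP22, the ubiquitin protease of the SAGA coactivator, had its peak 60 bp downstream of the start. It stood at 4.62 and 4.88 in IDH1 WT −DSB, 5.69, 5.69 and 5.81 in IDH1 WT +DSB, 5.66, 5.39 and 5.51 in IDH1 R132H −DSB, and 4.72, 4.53 and 4.85 in IDH1 R132H +DSB. The difference in the change was -1.80 ± 0.189 (limma, adjusted p = 2.76e-07), and -0.26 with the run names (limma, adjusted p = 0.784). FDX1, a mitochondrial ferredoxin, stood at 4.62 and 4.97, then 5.52, 5.65 and 5.91, then 5.56, 5.30 and 5.52, and then 4.77, 4.90 and 5.06 in the same order of groups. At both genes the highest value of the IDH1 WT −DSB and IDH1 R132H +DSB samples was below the lowest of the other IDH1 samples. The difference in the change at FDX1 was -1.45 ± 0.183 (limma, adjusted p = 2.29e-06), and -0.12 with the run names (limma, adjusted p = 0.899).

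DSC2, a desmosomal cadherin, was more variable, with 2.95 and 2.53 in IDH1 WT −DSB, 3.99, 4.03 and 4.30 in IDH1 WT +DSB, 3.67, 3.75 and 3.54 in IDH1 R132H −DSB, and 3.86, 2.98 and 3.19 in IDH1 R132H +DSB. The last 2 groups overlapped. The difference in the change was -1.68 ± 0.445 (limma, adjusted p = 0.00304), and 0.15 with the run names (limma, adjusted p = 0.953). Its genotype difference without breaks, 0.92 ± 0.331 (limma, adjusted p = 0.0389), lost its call on leaving out any of the 5 samples compared or IDH1 WT +DSB replicate 1 (limma, adjusted p from 0.0516 to 0.226). That at FDX1, 0.66 ± 0.137 (limma, adjusted p = 0.00138), lost its call without IDH1 WT −DSB replicate 2 (0.49, limma, adjusted p = 0.0559).

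With breaks, PHLDA1, a pleckstrin homology-like protein, and NHLRC1, the ubiquitin ligase malin, were also lower in IDH1 R132H, by differences of -0.85 ± 0.313 (limma, adjusted p = 0.0282) and -0.82 ± 0.154 (limma, adjusted p = 0.000258). The call at PHLDA1 was lost without IDH1 WT +DSB replicate 3, IDH1 R132H +DSB replicate 1 or IDH1 R132H +DSB replicate 2 (limma, adjusted p = 0.174, 0.0975 and 0.0698). PHLDA1 rose with breaks in IDH1 WT by 1.04 ± 0.350 (limma, adjusted p = 0.0198), a call lost without IDH1 WT −DSB replicate 2 or IDH1 WT +DSB replicate 3 (limma, adjusted p = 0.183 and 0.109). SECISBP2, which binds selenocysteine insertion elements, fell with breaks by 0.62 on the log2 scale in IDH1 R132H (SE 0.129, limma, adjusted p = 0.00119).

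**Figure D4:**
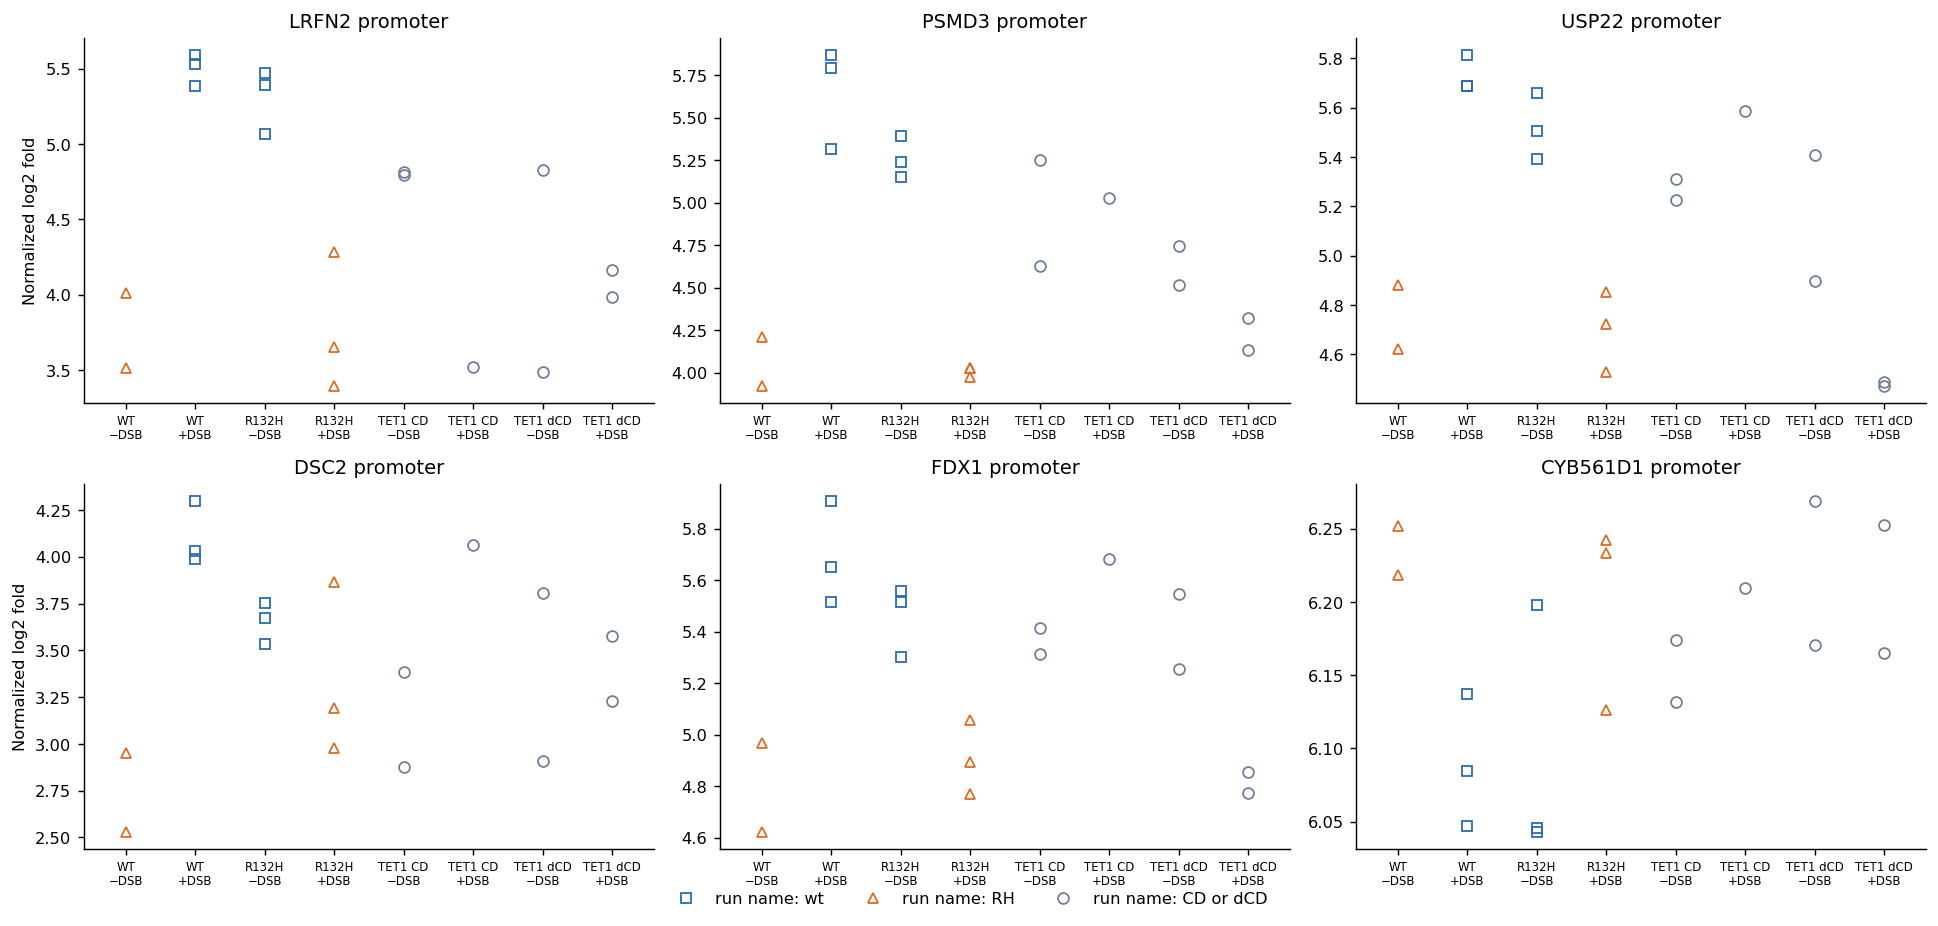
Normalized log2 fold over background (y axis, ranges differ by panel and do not start at 0) of the CTCF peak at 6 member promoters in each of 18 samples, by labelled group (x axis). Squares and triangles mark run names of wild-type (wt) and R132H (RH) cells, circles those of the TET1 cells; at LRFN2, PSMD3, USP22 and FDX1 every square of the IDH1 groups lies above every triangle, while at CYB561D1 all values after quantile normalization lie between 6.04 and 6.27. The samples shown as squares also had greater depth and longer fragments than those shown as triangles.

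The promoter with the strongest summit varied little after quantile normalization. CYB561D1 stood at 6.22 and 6.25 in IDH1 WT −DSB, 6.08, 6.14 and 6.05 in IDH1 WT +DSB, 6.05, 6.04 and 6.20 in IDH1 R132H −DSB, and 6.24, 6.13 and 6.23 in IDH1 R132H +DSB. Its difference in the change was 0.25 ± 0.0740 (limma, adjusted p = 0.00642), and -0.03 with the run names (limma, adjusted p = 0.942). As deposited, its fold over background was 87.9 to 90.9 in the lists of IDH1 WT −DSB, 48.0 to 59.4 in IDH1 WT +DSB, 51.1 to 71.6 in IDH1 R132H −DSB and 79.9 to 89.9 in IDH1 R132H +DSB. With median scaling its change in IDH1 WT was -0.78 (limma, adjusted p = 0.000712) and its difference in the change 1.29 (limma, adjusted p = 4.4e-05).

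Between TET1 CD and TET1 dCD with breaks, 7 of the 30 members were called, 7 higher and 0 lower with TET1 CD, beside 18.3% of all sites (8.17% higher and 10.2% lower). The group of TET1 CD +DSB is 1 sample, whose spread is taken from the other groups. The members were PHLDA1 (1.40 ± 0.470, limma, adjusted p = 0.0433), USP22 (1.11 ± 0.189, limma, adjusted p = 0.00246), NUTM2E (0.94 ± 0.248, limma, adjusted p = 0.0168), FDX1 (0.87 ± 0.183, limma, adjusted p = 0.00729), PSMD3 (0.80 ± 0.250, limma, adjusted p = 0.0315), GMFB (0.77, limma, adjusted p = 0.0232) and PTPRM (0.72, limma, adjusted p = 0.0135). NUTM2E belongs to a family of near-identical copies between which reads may be split. PHLDA1 entered the comparison only through lists of IDH1 WT +DSB and TET1 CD +DSB, as given above. The count was 3 without either TET1 dCD +DSB sample and 11 without either TET1 dCD −DSB sample. PSMD3 and NUTM2E lost their calls without TET1 dCD +DSB replicate 1 or 2 (limma, adjusted p from 0.0503 to 0.120), and PHLDA1 lost its call without any of 8 samples (limma, adjusted p from 0.0505 to 0.107). GMFB and PTPRM also lost theirs on leaving out 1 sample. USP22 and FDX1 stayed called whichever other sample was left out. The 1 sample of TET1 CD +DSB could not be left out, since the comparison does not exist without it. With median scaling 9 members were higher and 4 lower, beside 14.6% and 28.2% of all sites, and all 7 of these members kept their call and direction. With the groups of the run names USP22 and FDX1 were called, both higher, beside 6.89% of all sites (4.43% higher and 2.46% lower).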

How the data were processed

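CTCF ChIP-seq of DIvA cells was carried out by the authors with the ChIP-IT High Sensitivity kit and the antibody ab70303. Per the submitters' processing notes, cutadapt 1.18, Bowtie2 2.3.4.1, deepTools and hg38 were used, and per the paper the authors called peaks with MACS2 on each sample against input. Each of the 24 deposited lists gives for a peak its position, summit, fold (a ratio to background), −log10 p and −log10 q, as written by the authors' peak caller. These values are not normalized between lists. The deposited score column was not used. Other samples of the series were not analysed here.

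AsiSI sites, genes and motifs came from GRCh38 and GENCODE release 44. Summits were counted within 1, 5, 10 and 50 kb. Depth per list was estimated with an assumed effective genome of 2.7 Gb and one background level per list, so it is relative, and precision is limited by 1 to 3 samples per group. Lists of a group were compared at shared summits (within 60 bp, 20 to 50 reads) by a chi-square test at 0.05. Pairs that did not differ beyond sampling noise while other pairs of the group did were counted as 1 sample (5 pairs, spread 0.647 to 1.01 times that noise), as was the pair of TET1 CD +DSB, the only one of its group and below the noise (0.672). The only pair of TET1 CD −DSB (0.984) was not below the noise and was kept as 2. Replicate numbers paired the IDH1 WT lists with and without breaks (correlations 0.290, 0.179 and 0.141, each over 0.1), but not those of the other IDH1 comparisons (-0.119 to 0.232, not each over 0.1). CTCF sites were joined within 100 bp. Tests were exact permutation, sign-flip and Fisher's tests (scipy 1.17.1, numpy 2.4.6, pandas 2.3.3, Python 3.11.15) and limma 3.58.1 in R 4.3.3, on quantile-normalized log2 fold computed from the deposited fold. The steps were tested on simulated data. Alternatives were peak strength, sample merging, gene start definition, scaling, left-out samples, a replicate block and the run-name groups, the last added for limma after the data were seen, as were the comparisons of control octamers between groups.

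Named sites were those nearest to the 4C-seq viewpoint primers, the 6 best ranks, the 3 widest gaps between genotypes, up to 5 limma calls per contrast by size, and members of the gene lists. GMFB, PTPRM, AHCYL1, EIF3G, ZNF3 and CYB561D1 were named for limma after their values were seen. The members and lists were chosen with earlier results of these data known.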

Additional observations from a re-analysis of the deposited data

Results flagged for a closer look

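The difference between the genotypes in the change with breaks stood out in the share of promoter AsiSI sites with a CTCF summit within 1 kb, at -22.7 percentage points (p = 0.025, exact permutation test within treatments). The share was higher with breaks in IDH1 WT and lower in IDH1 R132H by group means. The difference was -11.2 points with the groups of the run names (p = 0.28, exact permutation test). With the replicate number as a block and every list its own sample it was -17.6 points (p = 0.0625, exact permutation test). At the promoter control octamers it was -24.5 points (p = 0.05, exact permutation test). For promoter AsiSI sites minus these octamers it was 1.85 points over all peaks (p = 0.645) and -3.92 points among the 20000 strongest peaks (p = 0.005, both exact permutation tests).

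The same difference was called in peak strength at 16 of 30 members by limma, beside 61% of all sites, and at 0 with the groups of the run names. Among the named members it was -3.27 at LRFN2, -2.84 at PSMD3, -1.80 at USP22, -1.68 at DSC2 and -1.45 at FDX1 on the log2 scale, and at none of these 5 did limma call it with the groups of the run names. DSC2 entered the comparison only through 1 list of IDH1 WT +DSB. No group held 4 samples, so single samples far from the rest of their group were not looked for.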

How the results depend on the processing

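Over the alternatives, 395 recomputed results kept their direction and side of the threshold, or stayed within 1.5 times for counts. Of the others 12 changed direction, 22 passed below the threshold, 5 no longer did and 30 counts moved further. The 395 include Fisher's test, which called no site under any alternative, and sign-flip tests that stayed at their smallest possible p. The exceptions follow. With the groups of the run names the genotype difference in the share of members with a summit was -11.3 points (p = 0.025) and the difference in the change with breaks -11.2 points (p = 0.28, exact permutation tests). With every list its own sample the change in IDH1 WT was 15.6 points (p = 0.0286, exact permutation test). With the replicate block and every list its own sample the change in IDH1 WT, the one comparison in which the replicate numbers paired the lists, was 15.8 points (p = 0.25), the difference in the change was -17.6 points (p = 0.0625), and that in summits within 50 kb 0.123 (p = 0.984, exact permutation tests). Below, "block" means this fit. Within 50 kb that difference was -0.216 among the 20000 strongest peaks and -2.26 at a −log10 q of 10 or more (p = 0.005 each), and TET1 CD minus dCD was 0.0827 and 0.560 (p = 0.167 each, exact permutation tests).

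For the control octamers, the genotype difference was -10.7 points with every list its own sample and -12.5 with the block, and the difference in the change was -4.59 among the strongest peaks, -45.2 at the q limit, -20.2 with every list and -21.8 with any transcript start. AsiSI minus control differed between genotypes by -0.598 points among the strongest peaks, 3.80 with every list, 3.24 with any transcript start, 3.94 with starts within 500 bp and 4.57 with the block, and in the change by -3.92 among the strongest peaks and -0.939 with the block. Over all samples AsiSI minus control was 3.97 points among the strongest peaks and 4.32 at the q limit. Promoter minus other AsiSI sites at 5 to 10 kb was 0.00640 per kb among the strongest peaks, 0.00766 at the q limit, 0.00405 with every list and 0.0164 with starts within 500 bp. At 10 to 50 kb it was 0.000194 among the strongest peaks, -2.39e-05 at the q limit and 0.00187 with starts within 500 bp.

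The limma counts of members were 18 without breaks, 24 in IDH1 WT, 18 in IDH1 R132H and 13 for TET1 with median scaling. With the stronger 50% of CTCF sites, which leaves fewer members to test, they were 4 without and 9 with breaks, 6 in IDH1 WT, 5 in IDH1 R132H, 9 for the difference and 3 for TET1. With every list its own sample they were 20 in IDH1 WT and 13 for TET1, and with the block 21 and 15. With the run names they were 0 in IDH1 WT, 0 in IDH1 R132H, 0 for the difference and 2 for TET1. The run names also turned the genotype difference without breaks at LRFN2 (-1.54), PSMD3 (-1.20), DSC2 (-0.92), USP22 (-0.77) and FDX1 (-0.66), the change in IDH1 R132H at LRFN2 (0.0111) and FDX1 (0.11), and the difference in the change at DSC2 (0.15). The causes were not tested.

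Leaving out each sample in turn, the share of members differed between genotypes by -8.42 to -2.78 points, changed by 11.0 to 22.3 in IDH1 WT and -8.15 to -3.36 in IDH1 R132H, differed in the change by -28.3 to -17.0, and for TET1 by 1.08 to 11.0. Within 50 kb the values were -1.82 to -0.560, -3.40 to -0.882 and -4.96 to 0.905, the last 0.905 without the 1 sample of TET1 CD +DSB, which leaves the −DSB samples alone. Control octamers gave -12.8 to -5.49 and, in the change, -31.8 to -17.2, with p = 0.0375 (exact) without IDH1 WT −DSB replicate 3. AsiSI minus control gave 2.71 to 4.62, with p = 0.0333 (exact) without IDH1 R132H −DSB replicate 1, and in the change -0.309 (without that sample) to 3.53. The difference at 5 to 10 kb was 0.00230 to 0.00381 per kb, past the threshold without IDH1 R132H +DSB replicate 1 or 2 (0.00372 and 0.00381). The limma counts ranged from 5 to 13 without breaks, 10 to 17 with breaks, 8 to 16 in IDH1 WT, 6 to 11 in IDH1 R132H, 13 to 18 for the difference and 3 to 11 for TET1. TET1 dCD +DSB, at a depth of 26.6 to 27.9, listed 447411 to 502930 peaks and IDH1 WT +DSB, at 70.9 to 80.0, listed 208914 to 346552, and the part of depth was not tested.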
